A study of Rattus norvegicus with 96 samples.

Results

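The genes of the cytosolic ribosomal proteins were followed in 96 arrays of the central nucleus of the amygdala, a brain region tied to fear, stress and alcohol drinking, from rats selected over generations for drinking much or little alcohol. A probe set was taken as a member where it is annotated to 1 gene symbol that starts with Rpl or Rps followed by a digit, or is Rplp0, Rplp1 or Rplp2, leaving out the Rps6k kinases. The rule found 54 of 31042 probe sets, for 49 of the 14217 genes with a symbol of their own. Of these genes, 34 have large-subunit names (Rpl, with Rplp0) and 15 small-subunit names (Rps), and 2 of them, Rpl37-ps2 and Rps4x-ps1, are named as pseudogenes. Rpl14, Rpl3, Rpl7, Rpl7l1 and Rps24 have 2 probe sets each, and the brighter one stands for the gene wherever genes are counted. Another 36 probe sets that name a ribosomal protein gene beside other symbols were left out. Rplp1, Rplp2 and Rps19 had no probe set of their own among the members.

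The arrays came from 5 pairs of lines, each pair holding an alcohol-preferring line (HAD1, HAD2, P, AA or sP) and its non-preferring partner. The pairs were HAD1 (9 rats) with LAD1 (10 rats), HAD2 (10 rats) with LAD2 (10 rats), P (10 rats) with NP (10 rats), AA (10 rats) with ANA (10 rats), and sP (8 rats) with sNP (9 rats). Each rat gave 1 array. The labels give no sex, age or alcohol exposure, so breeding and any drinking cannot be told apart in a difference between lines. The array LAD1 36 is a LAD1 array by title and preference but a HAD1 rat by its source name, and it was counted as LAD1.

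Ribosomal proteins join ribosomal RNA to form the large and small subunits, which meet on a messenger RNA to translate it. Cells make these proteins in matched amounts, and their messenger RNAs are among the most abundant of the cell. Most of these messenger RNAs begin with a run of C and T letters, the 5′ terminal oligopyrimidine (TOP) tract, through which the mTOR kinase tunes their translation. In neurons, ribosomes also work in dendrites and axons, where local translation takes part in synaptic change.

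To show a feature many of these genes share, the 30 bases around the annotated start (10 before it and 20 from it on) are given on the gene's strand for the members that later results turn on, with the longest unbroken run of at least 7 C or T letters in capitals. RefSeq (GRCr8) sequences were found for 40 of the 49 genes. The first 4 are bright genes of both subunits and the other 6 are the 5 genes called in a comparison and Rpl26, the parent gene of Rpl26l1.
Rpl19 (chr10:83519054-83519083, plus strand): ccagcaagCTCTTTCCTTTCgctgctgcgt
Rpl35 (chr3:43165902-43165931, minus strand): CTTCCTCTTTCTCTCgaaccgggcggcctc
Rpl27a (chr1:172974563-172974592, plus strand): cttggtgggCTCCTCCCTCTTTCTTTTCTg
Rps23 (chr2:23814507-23814536, plus strand): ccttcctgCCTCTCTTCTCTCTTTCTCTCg
Rps24 (chr16:96507-96536, plus strand): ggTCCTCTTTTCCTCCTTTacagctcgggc
Rpl41 (chr7:1563478-1563507, minus strand): ctcggaagtgacgacaccaagcacgccatt
Rps4y2 (chr4:183000903-183000932, plus strand): cagCTCTCCTCactcgcttgtgctctggga
Rpl26 (chr10:54109682-54109711, plus strand): gtcaacttacagaaccggaagtcgcatgta
Rpl26l1 (chr10:17029009-17029038, minus strand): tcatttccgggcctgcgcacacaccaccgg
Rpl39l1 (chr10:5966602-5966631, minus strand): caggccgtcccgctatcctggtgtgtggtc

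A run of this kind lay in the window of 24 of the 40 member genes (60.0%), against 16.9% of the 27457 genes of the table. On the other strand, where it reads as a run of A or G, it lay in 7.5% of the member genes and 20% of all genes. The longest C or T run had a median length of 8 letters in the members and 4 in all genes. The mitochondrial ribosomal protein genes (Mrpl and Mrps), which are translated in the same cytosol but serve the ribosome of mitochondria, held such a run in 11 of 59 windows (18.6%). Of the genes printed above, Rpl26, Rpl26l1, Rpl39l1 and Rpl41 had no such run in the window, which says only that these letters are not there next to the annotated start. The members with the run included bright and dim ones, 19 of 31 and 5 of 9.

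The tissue label was set against 12 marker genes of central amygdala neurons. Gad1, which makes GABA, averaged a signal of 14.31, the opioid precursor Penk 13.87 and the opioid precursor Pdyn 12.25 (log2, mean of 96 arrays), while the receptor gene Calcrl was dim at 5.81. The scale has no true zero, so no marker can be read as absent. Array medians ran from 7.77 to 8.02. The log2 ratio of the 3′ to the 5′ GAPDH control, a measure of how far the RNA copy was shortened, averaged 3.84 ± 0.66 in HAD1, 4.09 ± 0.46 in LAD1, 3.43 ± 0.58 in HAD2 and 3.33 ± 0.26 in LAD2 (SD), and 0.20 to 0.43 in the other 6 lines. Each array was placed between the 2 lines of its pair by the probe sets that best separated them in the other arrays. By this measure, 15 arrays lay nearer to the opposite line of their pair. They were 2 in HAD1 and LAD1, 4 in P and NP, 5 in AA and ANA, and 4 in sP and sNP. Each array had 2 scores, positive towards the preferring line and negative towards its partner. Most of the 15 scored as far to the opposite side as arrays of that line. P 9 scored −1.28 and −1.16, and NP 9 scored 0.92 and 1.06. HAD1 28 scored −1.03 and −1.02, and LAD1 37 scored 0.76 and 0.86. NP 1 (0.49 and 0.27) and ANA 18 (0.07 and 0.02) lay closer to the middle. Whether labels were exchanged was not tested. The arrays sP 2 and sNP 2 differed by an SD of 0.09, less than any other 2 arrays of the same line pair (next 0.16), so they may hold 1 RNA. Results are given with all 96 arrays. Values without the 15 doubted arrays are given where a count of called members or a median of the members changed. Since these arrays were picked by their likeness to the opposite line, leaving them out sets the lines of a pair further apart by construction.

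Most members were bright. The signal averaged over 11 on the log2 scale in 37 of the 49 genes, from Rpl14 at 11.91 up, while 11.7% of all probe sets were over 11. Of the 54 member probe sets, 26 were among the brightest 310 (the top 1%). The median signal was 13.51 over the member genes and 9.06 over all genes. The brightest were Rps23 (14.83), a protein at the decoding centre, Rps29 (14.69), a small-subunit protein, and Rpl3 (14.37), which sits near the site where peptide bonds form. Signals of different probe sets depend on their probes, so these are array signals and not ranked amounts of RNA.

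The 12 genes with signals under 11 were the paralogues Rpl7l1 (10.49), Rpl26l1 (8.07), Rps27l (7.14), Rps4y2 (7.03), Rpl3l (5.67) and Rpl39l1 (5.42), the pseudogenes Rpl37-ps2 (10.44) and Rps4x-ps1 (4.45), and the core genes Rpl39 (9.0), Rps13 (7.01), Rpl28 (6.50) and Rpl30 (5.12). Rpl3l is known as the form of Rpl3 in striated muscle, and its signal was low in the amygdala. Where a gene had 2 probe sets, they could lie far apart: those of Rpl3 averaged 14.37 and 8.10, those of Rps24 12.95 and 7.75, and those of Rpl14 11.91 and 5.25. A dim probe set for a core gene is therefore no sign that its messenger RNA is scarce.

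The bright members differed far more in level between families of lines than within pairs. In 36 of the 37 bright genes all 4 HAD and LAD line means lay under all 6 means of the P, NP, AA, ANA, sP and sNP lines, and in the remaining one they lay over them. Over all 2625 genes with signals over 11, 27.0% lay under in this way and 41.8% over. The median difference, HAD and LAD lines minus the other 6, was −1.02 for the bright members and 0.14 for all bright genes.

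**Figure D1:**
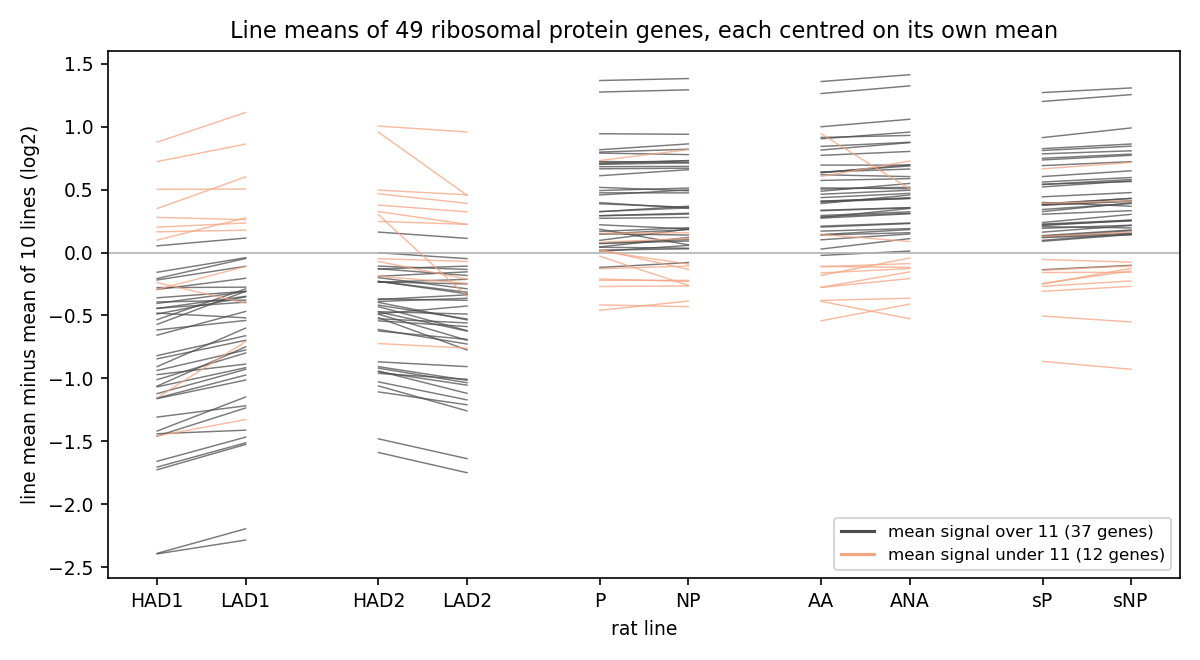
Mean signal of each of the 49 genes in each line (y axis, log2, after subtracting the gene's own mean over the 10 lines), joined within each pair, with the preferring line on the left; dark lines are the 37 genes with mean signals over 11, pale lines the 12 under 11. The dark lines lie low in the HAD and LAD lines and high in the other 6, and slope little within pairs.

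The widest range of line means was that of Rps24, a small-subunit protein mutated in Diamond-Blackfan anaemia in people. It averaged 10.57 in HAD1, 10.77 in LAD1, 11.37 in HAD2 and 11.21 in LAD2. In the other lines it averaged 14.24 in P, 14.25 in NP, 14.32 in AA, 14.37 in ANA, 14.23 in sP and 14.27 in sNP. Rpl24, a large-subunit protein at the bridge between subunits, showed a like gap, from 9.96 to 10.88 in the HAD and LAD lines and from 13.56 to 13.74 in the other 6. The gap depends on the probe set. The other probe set of Rps24 went the opposite way, at 8.28 in HAD1, 8.24 in LAD1, 7.97 in HAD2 and 8.03 in LAD2, and from 7.41 to 7.59 in the other 6 lines. The dimmer probe sets of Rpl3 (8.53 to 8.85 in the HAD and LAD lines, 7.60 to 7.73 in the others) and Rpl7 (9.03 to 9.35, and 8.06 to 8.63) also lay higher there. The mitochondrial ribosomal protein genes were lower too, 43 of 73 in all 4 lines, with a median difference of −0.58. The HAD and LAD arrays also carry the high GAPDH ratios given above, so line family and RNA quality cannot be told apart here. The sample titles name no array run, so any part of it cannot be told apart either. All further comparisons were made within pairs.

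Within lines, the bright members moved up and down together from rat to rat. Across the arrays of a pair, after removal of the line means, the mean pairwise correlation among the 37 bright members was 0.74 in HAD1 and LAD1 (19 arrays), 0.56 in HAD2 and LAD2 (20), 0.45 in P and NP (20), 0.61 in AA and ANA (20) and 0.66 in sP and sNP (17). Among all other genes over 11 it was 0.36 in HAD1 and LAD1 and between 0.01 and 0.03 in the other pairs. Among the 12 dim members the mean correlations ran from −0.01 to 0.09. These are descriptions, as members share each array's RNA and normalization.

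Each gene was set against the median of the other members over the 96 arrays. Rpl19 followed it most closely (r = 0.93), then Rps29 (0.93), Rpl35 (0.93) and Rps28 (0.92), proteins of both subunits. Of the dim genes, Rpl7l1 (0.53) and Rpl39 (0.43) followed it in part and the other 10 at 0.25 or lower, among them Rpl26l1 (0.19), Rpl39l1 (0.09) and Rpl3l (−0.17). Of the 37 bright genes, Rps9 (0.41) and Rps3 (0.49), both of the small subunit, had the lowest values. Rps6, the small-subunit protein phosphorylated downstream of mTOR, had r = 0.86, Rplp0, the base of the stalk that binds elongation factors, 0.78, and Rpl5 and Rpl11, which together bind Mdm2, 0.90 and 0.70.

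**Figure D2:**
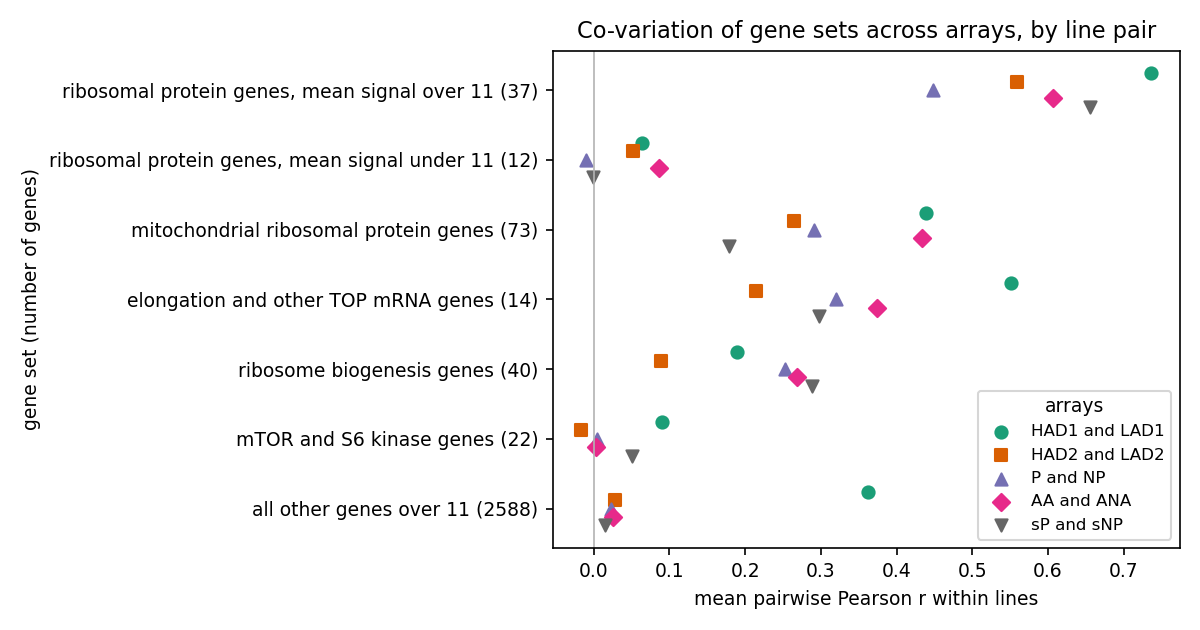
Mean pairwise Pearson r (x axis) among the genes of each set (y axis) across the arrays of each line pair, after removal of line means; each symbol is 1 pair. The bright ribosomal protein genes lie between 0.45 and 0.74, to the right of every other set shown in each of the 5 pairs. The cell type marker lists, some of which lie higher, are not shown.

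Related sets showed this to a lesser degree. The 73 mitochondrial ribosomal protein genes had mean correlations from 0.18 to 0.44. The 14 genes of translation elongation and other TOP messenger RNAs, such as elongation factors, ranged from 0.21 to 0.55. The 40 ribosome biogenesis genes, which build the subunits in the nucleolus, ranged from 0.09 to 0.29. The 22 genes of mTOR and S6 kinase signalling had mean correlations from −0.02 to 0.09, near those of all genes, which ran from 0.004 to 0.05. Cell type marker lists also moved together, some of them more closely than the bright members. The mean correlations of 11 oligodendrocyte genes were 0.65 in HAD1 and LAD1, 0.67 in HAD2 and LAD2, and 0.83 to 0.88 elsewhere. Those of 10 striatal genes ran from 0.21 to 0.68. Close shared movement was therefore not particular to the members.

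The shared movement was widest in HAD1 and LAD1. The median deviation of the 49 genes from their line means had an SD over rats of 0.19 in HAD1 and 0.21 in LAD1, 0.09 in HAD2 and 0.09 in LAD2, and 0.03 to 0.08 in the other 6 lines. The same median over all genes had SDs from 0.01 to 0.05. Other bright genes moved in HAD1 and LAD1 too: their median had SDs of 0.12 in HAD1 and 0.13 in LAD1, against 0.01 to 0.04 in the other 8 lines, and that of the mitochondrial ribosomal protein genes 0.12 and 0.16. In HAD1 29 the members sat 0.37 under the line mean (a shift of −0.37), with 2 of 49 genes above it. In HAD1 26 they sat 0.27 above it, with 44 of 49 above. In LAD1 39 the shift was −0.37, with 5 of 49 above, and in LAD1 31 it was 0.28, with 41 of 49 above. The other bright genes shifted by −0.22, 0.13, −0.28 and 0.15 in these 4 arrays. The GAPDH ratio was 3.33 in HAD1 29 and 5.15 in HAD1 26, and 3.63 in LAD1 39 and 4.41 in LAD1 31. Not all arrays of these lines kept that order. HAD1 25 had a ratio of 3.22 and a shift of 0.04, and LAD1 40 a ratio of 4.44 and a shift of −0.11. The part of RNA quality in these shifts was not tested. Fewer cells of a type and less RNA per cell cannot be told apart in such bulk tissue.

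**Figure D3:**
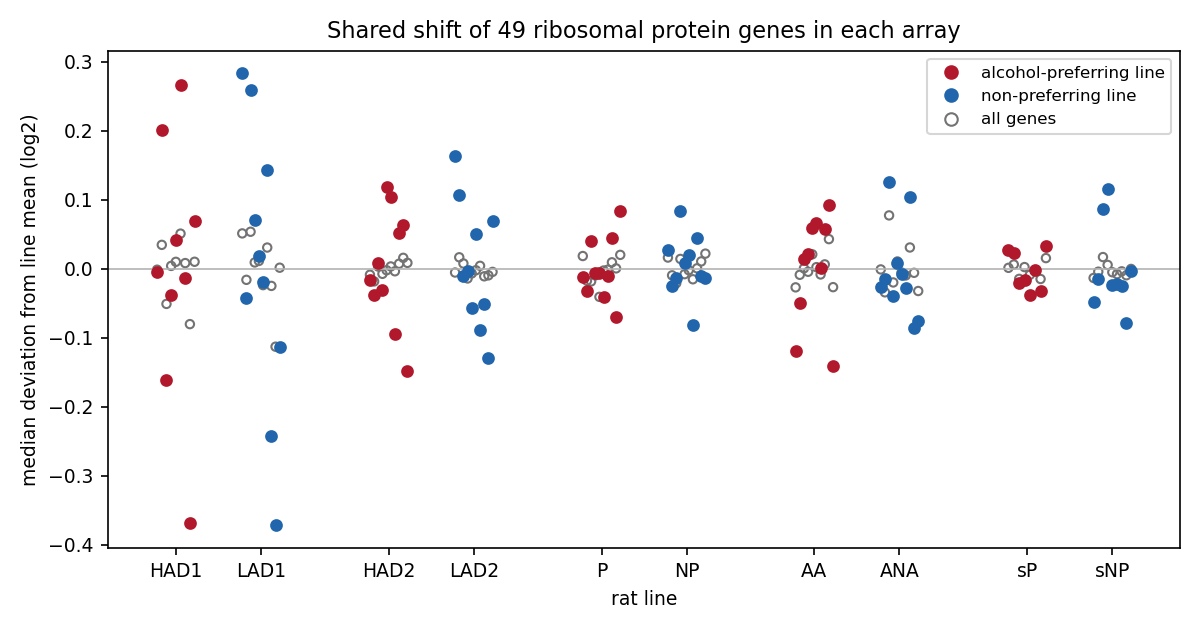
Median deviation of the 49 ribosomal protein genes from their line means in each of the 96 arrays (y axis, log2; filled points, coloured by preference), and the same over all genes (open circles). The filled points spread widest in HAD1 and LAD1, between −0.37 and 0.28, and the open circles stay close to 0.

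Between HAD1 and LAD1, the question was whether these genes differ between a line bred to drink and its low-drinking partner. The members leaned lower in HAD1: the median difference was −0.15 over the 49 genes, with 46 below 0, against −0.01 over all genes. As a group the members deviated from the pair's mean by −0.07 ± 0.18 in HAD1 and by 0.07 ± 0.20 in LAD1 (SD), so the lean is smaller than the spread between rats. Both subunits leaned alike, with medians of −0.16 for the 34 Rpl genes and −0.13 for the 15 Rps genes. The mitochondrial ribosomal protein genes leaned the same way, with a median of −0.09 and 60 of 73 below 0. With the GAPDH ratio as a covariate the members' median was −0.08, and without the doubted arrays it was −0.11.

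By limma, with p-values adjusted over all probe sets, 1 of 54 member probe sets was called, and it fell, where 0.963% of all probe sets were called (148 higher and 151 lower in HAD1). At an unadjusted p under 0.05 there were 10, or 18.5%, against 11% of all. The one that fell was Rpl26l1, a paralogue of the large-subunit protein Rpl26. It had a signal from 8.31 to 8.55 (median 8.41) in HAD1 rats and from 8.51 to 8.82 (median 8.67) in LAD1 rats. Only the highest HAD1 array reached into the LAD1 range. The means were 8.42 ± 0.08 in HAD1 and 8.67 ± 0.11 in LAD1, a difference of −0.25 (SE 0.06, limma adjusted p = 0.0287).

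The call for Rpl26l1 in HAD1 was close to its threshold. It was lost in a fit to all 10 lines (adjusted p = 0.0899), with LAD1 36 counted as HAD1 (0.144), after centring on other bright genes (0.112), and without any of HAD1 23, 24, 25 or 29 or LAD1 31, 32, 34 or 38 (0.0515 to 0.069), while the difference stayed between −0.27 and −0.23 when single arrays were left out. Rps4y2, a paralogue of the small-subunit protein Rps4x, had signals from 5.59 to 6.06 (median 5.87) in HAD1 and from 5.95 to 6.89 (median 6.23) in LAD1. The HAD1 arrays lay low, and the lowest LAD1 arrays fell among the highest HAD1 ones. The difference was −0.45 (SE 0.11), which did not pass (limma adjusted p = 0.0622). Without the doubted HAD1 28 and LAD1 37 it was −0.49 (adjusted p = 0.0292), and leaving out HAD1 28, LAD1 35 or LAD1 37 alone also brought it under the threshold (0.0397 to 0.0489).

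The parent gene Rpl26, at the exit of the peptide tunnel, differed by −0.31 (SE 0.13, limma adjusted p = 0.362). In the fit to all 10 lines it passed, at 0.0183, together with Rpl11, Rpl7l1, Rpl12 and Rpl21. That made 5 member calls in place of 1, while calls over all probe sets went from 299 to 785. The fit to all 10 lines takes 1 spread for all of them. The SD of Rpl26 was 0.294 in HAD1 and 0.325 in LAD1, against 0.183 within all 10 lines. The members highest in HAD1 relative to LAD1 were Rpl39l1, by 0.16, and Rpl6, by 0.04, neither past the threshold. Of the marker lists, all 11 microglial genes measured were lower in HAD1, with a median difference of −0.21. The mean signal of the list ran from 9.01 to 9.44 over HAD1 arrays and from 9.27 to 9.70 over LAD1 arrays, with overlap. C1qc and Cx3cr1 of that list fell by 0.48 and 0.40 on the log2 scale (limma adjusted p = 0.0266 and 0.0348), as did the vascular gene Abcb1a, by 0.67 (0.0403). The part of cell makeup in the lean of the members was not tested.

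Between HAD2 and LAD2 the lean went the other way. The median difference was 0.07 over the 49 genes, with 43 above 0, against −0.004 over all genes. The deviation from the pair's mean was 0.04 ± 0.09 in HAD2 and −0.04 ± 0.09 in LAD2 (SD), again smaller than the spread between rats. Medians were 0.07 for the Rpl genes, 0.05 for the Rps genes and 0.07 for the mitochondrial ribosomal protein genes, 59 of 73 of which were above 0. By limma, 3 of 54 member probe sets were called and all 3 rose, where 4.09% of all probe sets were called (677 higher and 594 lower in HAD2). At an unadjusted p under 0.05 there were 11, or 20.4%, against 16.4% of all.

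**Figure D4:**
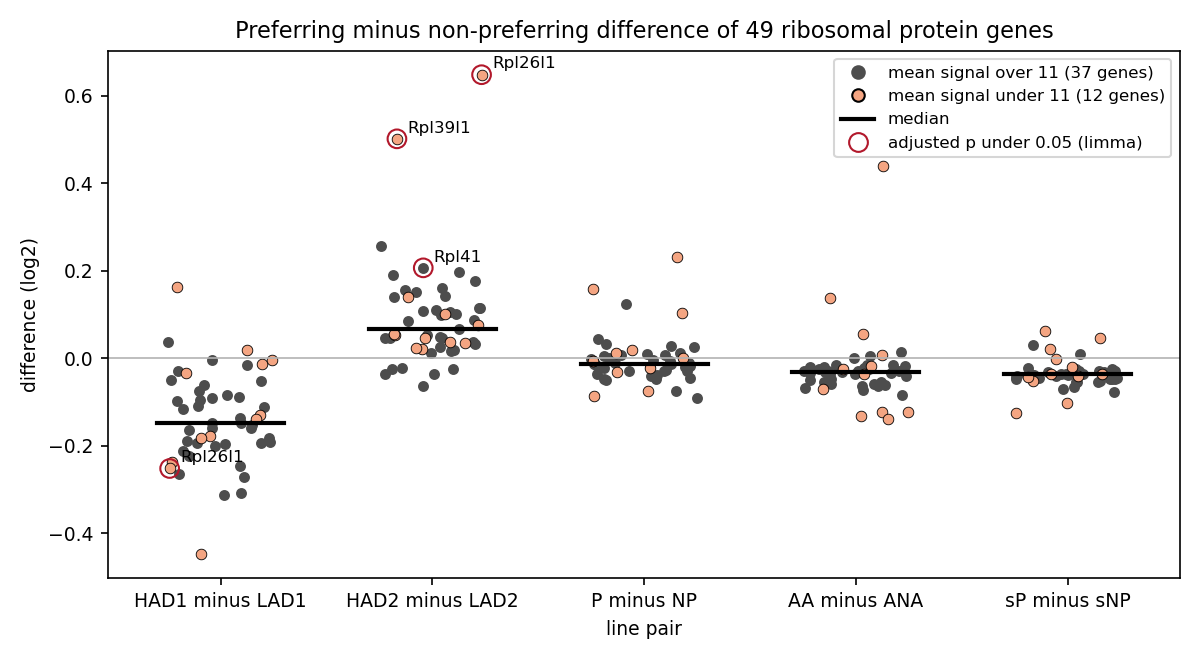
Difference of each of the 49 genes (y axis, log2, preferring minus non-preferring line) in each line pair (x axis); dark points are genes with mean signals over 11, pale points those under 11, black bars medians, and red rings genes past a limma adjusted p of 0.05. The points sit mostly under 0 in HAD1 minus LAD1 and mostly above it in HAD2 minus LAD2, and close to 0 in the other 3 pairs.

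Rpl26l1 rose most. Its signal ran from 8.08 to 8.49 (median 8.40) in HAD2 rats and from 7.46 to 7.89 (median 7.72) in LAD2 rats. Every HAD2 array lay above every LAD2 array, which held for no other member probe set in any pair. The share of all probe sets that separate 2 lines in this way was not counted. The means were 8.37 ± 0.12 in HAD2 and 7.72 ± 0.12 in LAD2, a difference of 0.65 or 1.57-fold (SE 0.06, limma adjusted p = 1.42e-07). The parent Rpl26 differed by 0.07 in the same rats (SE 0.10, adjusted p = 0.747).

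Rpl39l1, a paralogue of Rpl39, the small protein in the wall of the peptide tunnel, also rose. It had signals from 6.05 to 7.03 (median 6.28) in HAD2 and from 5.71 to 6.05 (median 5.85) in LAD2. The ranges met at 6.05, and 1 HAD2 array, HAD2 8, stood above the rest. The means were 6.36 ± 0.28 in HAD2 and 5.86 ± 0.12 in LAD2, a difference of 0.50 (SE 0.09, limma adjusted p = 8.39e-04). Both signals are dim, and without any 1 array the difference stayed between 0.43 and 0.54. Rpl39 itself differed by 0.05 (SE 0.07).

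Rpl41, the shortest of the ribosomal proteins, had signals from 12.82 to 13.30 (median 13.09) in HAD2 and from 12.75 to 13.06 (median 12.91) in LAD2. These ranges overlapped widely. The means were 13.10 ± 0.16 in HAD2 and 12.89 ± 0.11 in LAD2, and the difference of 0.21 (SE 0.06) only just passed (limma adjusted p = 0.0466). The call was lost without any 1 of 16 arrays, HAD2 1, 2, 3, 4, 5, 6, 8 and 9 and LAD2 12, 13, 14, 15, 16, 17, 18 and 19 (adjusted p from 0.052 to 0.0932). It was also lost in a fit to all 10 lines (0.0529), without the trend of spread on signal (0.0616) and after centring on other bright genes (0.0591).

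Counting the brighter probe set of each gene, the lowest members in HAD2 relative to LAD2 were Rps3, a small-subunit protein at the entry of the messenger RNA, by −0.06, and Rpl11, by −0.04, neither past the threshold. Rpl26l1 and Rpl39l1 both lie on chromosome 10, though not next to each other. None of the 20 measured genes nearest to Rpl26l1 (10 on each side in the GRCr8 order) passed the threshold in HAD2 minus LAD2 or in HAD1 minus LAD1. Nor did any of the 20 nearest to Rpl39l1 in HAD2 minus LAD2. Of all genes, 3.75% were called in HAD2 minus LAD2 and 0.682% in HAD1 minus LAD1, so no call among 20 genes says little. Among the marker lists, all 7 choroid plexus genes were lower in HAD2 than in LAD2, by a median of −0.11, and 10 of 12 central amygdala neuron genes were lower, also by −0.11, with none of them called. Called markers of other cell types were P2ry12 of microglia, which rose by 0.64 (limma adjusted p = 4.62e-06), Gjb6 of astrocytes, which rose by 0.28 (0.0131), and Abcb1a and Rgs5 of vascular cells, which rose by 0.66 and 0.42 (0.00933 and 0.00964). Cx3cr1 of microglia and Tek of vascular cells fell by 0.30 and 0.28 (0.0033 and 0.0235). The mean signal of the central amygdala list ran from 9.61 to 10.54 over HAD2 arrays and from 10.16 to 10.73 over LAD2 arrays, and the part of these lists in the members' values was not tested.

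**Figure D5:**
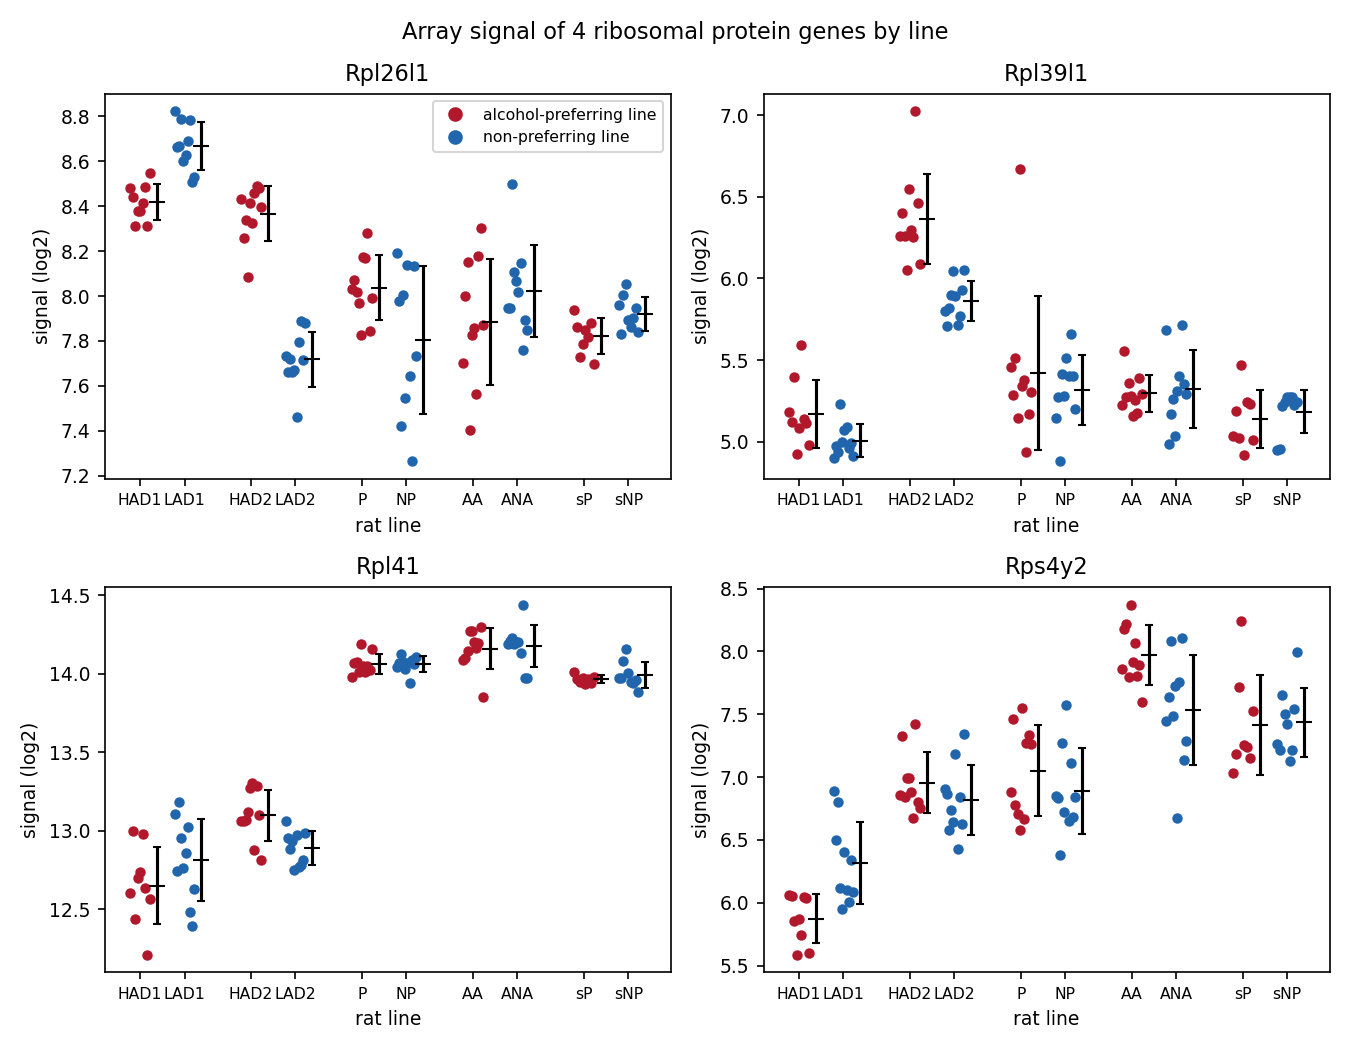
Signal (y axis, log2) of Rpl26l1, Rpl39l1, Rpl41 and Rps4y2 in each array by line (x axis), red for preferring and blue for non-preferring lines, with mean and SD (black) beside the points. Rpl26l1 separates HAD2 from LAD2 with no overlap and lies lower in HAD1 than in LAD1.

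In P against NP, in AA against ANA and in sP against sNP, limma called none of the 54 member probe sets, nor any probe set at all (0%). That absence of calls depended on the setting, and the part of possibly exchanged labels in it was not tested. Without the doubted arrays 502 probe sets were called in P and NP, 559 in AA and ANA and 542 in sP and sNP. Among them were 1, 0 and 0 members. With all arrays kept, the fit to all 10 lines called 168, 203 and 2 probe sets in these pairs, none of them members. Array weights called 3, 207 and 0, also with no member. The values that follow are from each pair's own fit with all its arrays, unless another setting is named. At an unadjusted p under 0.05 there were 2 members in P and NP (4.91% of all probe sets), 1 in AA and ANA (4.92%) and 1 in sP and sNP (4.32%). Median differences over the 49 genes were −0.01 in P minus NP, −0.03 in AA minus ANA and −0.04 in sP minus sNP, with 32, 42 and 44 genes below 0. Over all genes the medians were 0.01, 0.002 and −0.01. The small medians moved with the setting: in sP minus sNP it was −0.06 without the doubted arrays, and −0.004 with 18 of 49 genes above 0 when the GAPDH ratio was a covariate, and in P minus NP it was −0.002 without the doubted arrays. The deviations from the pair's mean had overlapping spreads, −0.01 ± 0.05 in P and 0.01 ± 0.04 in NP, −0.02 ± 0.08 in AA and 0.01 ± 0.07 in ANA, and −0.02 ± 0.03 in sP and 0.02 ± 0.06 in sNP (SD).

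Single genes differed more than the group in these pairs, none of them past the threshold. Rpl26l1 spread widely within NP, from 7.26 to 8.19 (median 7.86), with P from 7.82 to 8.28 (median 8.03). The P arrays lay in and just above the upper part of the NP range. The difference was 0.23 (SE 0.11, limma adjusted p = 0.999). In AA and ANA the same gene differed by −0.14 and in sP and sNP by −0.10. Rps4y2 had signals from 7.60 to 8.37 (median 7.91) in AA and from 6.67 to 8.11 (median 7.56) in ANA. The ANA arrays reached lower, with wide overlap, and the difference of 0.44 (SE 0.15) did not pass (limma adjusted p = 0.758).

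Other members at the ends of these pairs were Rpl22, a large-subunit protein, at −0.09 and Rps27l, the p53-induced paralogue of Rps27, at −0.09 in P minus NP. Rps4y2 was at 0.16 there. In AA minus ANA the pseudogene Rpl37-ps2 was at −0.13 and Rps13, a small-subunit protein, at 0.14. In sP minus sNP Rpl28, a large-subunit protein, was at −0.12, Rps13 at 0.06 and Rpl37-ps2 at 0.05. Rpl6, a large-subunit protein, differed by 0.12 in P minus NP, and by 0.22 without the doubted arrays, where it passed (limma adjusted p = 0.0359). Marker lists leaned in all 3 pairs, with no marker called. All 7 choroid plexus genes were higher in P than in NP, by a median of 0.54. All 11 oligodendrocyte genes were lower in P, by a median of −0.06, and 9 of 10 striatal genes, by −0.17. In AA 9 of 10 striatal genes were lower than in ANA, by a median of −0.23, and 10 of 11 oligodendrocyte genes, by −0.13. All 11 vascular and all 10 striatal genes were higher in sP than in sNP, by medians of 0.13 and 0.28. The mean signal of the choroid plexus list ran from 6.12 to 10.53 over P arrays and from 6.10 to 6.60 over NP arrays. The high end was 1 array, P 5: without it the list averaged 6.26 in P and 6.23 in NP, and 5 of 7 genes were higher in P, by a median of 0.04. The part of these lists in the members' values was not tested.

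Over the 5 pairs together, limma called no member in the mean of the preferring minus the non-preferring lines (0 of 54, where 0.986% of all probe sets were called). At an unadjusted p under 0.05 there were 6 (7.8% of all). With the line pairs as the replicates the count was also 0, with 2 members at an unadjusted p under 0.05 (3.35% of all) and no probe set called. Rpl39l1 came closest, with a mean difference of 0.14 (SE 0.05, limma adjusted p = 0.179). Over the 49 genes 43 means were below 0, with a median of −0.03, against −0.004 over all genes.

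The size of the difference varied among pairs for 3 of the 54 member probe sets, where 4.54% of all probe sets were called. Without the doubted arrays 4 members were called, with 3265 of all 31042 probe sets. The values that follow are from all arrays. Rpl26l1 differed by −0.25, 0.65, 0.23, −0.14 and −0.10 in the order of the pairs above (limma adjusted p for variation = 2.92e-09). It was lower in HAD1 and higher in HAD2 than in the partner line, both past the threshold. Rps4y2 differed by −0.45, 0.14, 0.16, 0.44 and −0.02 (0.0224). Rps24 differed by −0.20, 0.16, −0.02, −0.05 and −0.04 (0.048) by its bright probe set, while its other probe set differed by 0.03, −0.06, 0.10, 0.02 and 0.06 and was not called. The Rps24 call was lost in 7 of 10 other settings (adjusted p from 0.0505 to 0.0987).

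The rest of the translation machinery was described by the same fits, read against the 3.75% of the 14217 genes called in HAD2 minus LAD2 and the 0.816% called in the mean over pairs. Of 26 initiation factor genes, 1 rose in HAD2, Eif2b1, a subunit of the exchange factor of eIF2, by 0.28 (limma adjusted p = 0.00631). Of 40 ribosome biogenesis genes, 2 fell in HAD2, Utp14a of the small-subunit processome by 0.31 and Polr1b of RNA polymerase I by 0.43 on the log2 scale (limma adjusted p = 7.06e-04 and 0.00107). No gene of the 14 elongation and TOP genes, of the 22 mTOR and S6 kinase genes or of the 73 mitochondrial ribosomal protein genes was called in any single pair. In the mean over pairs Eif3c, of initiation factor eIF3, rose by 0.15 and Mrps2, of the small mitochondrial subunit, by 0.11 (limma adjusted p = 0.0187 and 0.0126). Utp14a and Polr1b fell by 0.10 and 0.14 there (limma adjusted p = 0.00117 and 0.0364).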

How the data were processed

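Each of the 96 rats gave 1 Affymetrix array, from biotinylated cRNA amplified in 2 cycles (25 ng of total RNA per rat, Trizol and RNeasy), per the labels' protocols. The authors deposited log2 values made with RMA, per the submitters' processing notes; the version is not stated in the sources used here, nor whether the 96 arrays shared 1 normalization. RMA forces arrays to like distributions, so only relative shifts can be seen. The number of arrays limits the precision. Values were used as deposited, without the 57 AFFX control probe sets. The members and all gene lists were chosen with earlier results of these data known. Genes were named from the platform annotation (20826 probe sets with 1 symbol), and 47 of 49 member genes were found in RefSeq.

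Each pair was fitted with limma 3.58.1 (R 4.3.3; eBayes with trend), with Benjamini-Hochberg adjustment over 31042 probe sets and a threshold of 0.05. All 10 lines in 1 fit gave the mean over pairs and the variation among them. Other settings are described at the end. Named genes were those called, those at the ends of each pair's differences, the brightest and dimmest, paralogues with their parents, and Rplp0, Rps6, Rpl5 and Rpl11. On simulated data with 200 probe sets changed by 1 log2 unit between HAD2 and LAD2, the fit recovered 197. The largest difference of a member gene was 0.65, and the simulated noise was independent between probe sets. The recovery therefore does not measure how well differences as small as those reported here can be found.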

Additional observations from a re-analysis of the deposited data

Results flagged for a closer look

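Single arrays stood apart from the rest of their line, by Dixon's test, in 6 of 60 tests, which covered the 5 member probe sets called in a comparison and the median shift of the members in each of the 10 lines; chance marks about 1 in 20. Rpl39l1 was high in HAD2 8 (7.03) and in P 5 (6.67), the array with the high choroid plexus signal. Rpl26l1 was high in ANA 6 (8.50) and low in LAD2 16 (7.46). Rpl41 was low in NP 7 (13.94) and in AA 19 (13.85). AA 19 was among the arrays nearer to the opposite line by overall profile.

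The preferring minus non-preferring difference varied among the 5 pairs, by the limma test of that variation, for Rps24 (adjusted p = 0.048), Rps4y2 (0.0224) and Rpl26l1 (2.92e-09). Rpl26l1 was lower in HAD1 than in LAD1 and higher in HAD2 than in LAD2.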

How the results depend on the processing

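The alternatives were a fit to all 10 lines, no intensity trend, array weights, brighter probe sets only, 1 probe set per gene, other centring and quantile normalization, the GAPDH ratio as covariate, LAD1 36 moved or left out, a replicate block, and each array left out; leaving out the doubted arrays, leaving out sP 2 and sNP 2, and centring on bright probe sets of other genes were chosen after seeing the data. No direction of a called value reversed, and each group median moved by less than 1 SD between rats, which is wider than most of these medians; those of P minus NP and sP minus sNP came close to 0 under some settings (−0.002 and −0.004). In HAD1 minus LAD1 the count of members called, 1 (299 of all probe sets), became 5 (785) in the fit to all 10 lines, 2 (700) with array weights, 0 (4) with LAD1 36 counted as HAD1, 2 (796) without the doubted arrays and 0 (302) after centring on bright other genes. In P minus NP 1 member (502 of all, against 0) was called without the doubted arrays, and the 3 members varying among pairs (1409 of all) became 20 (3972) with array weights and 9 (1563) with quantile normalization of all arrays; the cause was not tested. With single arrays left out, the counts ran from 0 to 2 in HAD1 minus LAD1 (medians −0.19 to −0.11), from 2 to 4 in HAD2 minus LAD2 (0.05 to 0.11), and stayed at 0 in P minus NP (−0.02 to −0.005), AA minus ANA (−0.04 to −0.02) and sP minus sNP (−0.05 to −0.02).

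The animal numbers were not taken to pair the samples. Same-numbered rats' deviations correlated from −0.11 to 0.50 in P and NP (5 of 10 over 0.1) and from −0.18 to 0.77 in sP and sNP (3 of 8). The same-numbered rat was the closest match for 2 of 10 P rats and 1 of 8 sP rats. These values do not settle whether the numbers pair the rats. With the replicate block on these numbers, 0 members were called in both pairs, with medians of −0.01 in P minus NP and −0.05 in sP minus sNP.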
